A study of Mus musculus with 21 samples.

Results

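The ATF4 amino acid stress response genes examined here were 10 genes listed by name: Eif2ak4, Atf4, Atf5, Atf3, Ddit3, Trib3, Chac1, Asns, Phgdh and Psat1. They were taken from 19300 mouse protein-coding genes of at least 2 kb in the RefSeq annotation of GRCm38. The measurement was the share of each gene body lying inside H3K36me3 peaks, called cover below, in each of 20 peak lists. H3K36me3 is trimethylation of lysine 36 of histone H3, and the lists come from ChIP-seq, sequencing of DNA pulled down with an antibody to this mark, in C2C12, an established line of mouse myoblasts that can be made to fuse into muscle fibres. The 5 conditions are D0, which has no medium named, and D1 and D5, days 1 and 5, each either in control medium (D1 control, D5 control) or under methionine restriction (D1 restricted, D5 restricted). Wild-type cells (WT) gave 2 libraries per condition, and the 2 lines named as Setd2 knockouts (KO line 1, KO line 2) gave 1 library each per condition. The labels state neither the methionine content of the media nor whether WT replicates came from separate cultures, so p-values measure only the spread between these libraries. The labels number the KO lines 1 and 2, whereas the peak names inside the lists call the same libraries replicates of a single KO group, and the labels were followed. A gene was tested when its mean cover over the 10 WT libraries was at least 5%, which 9512 genes and 9 of the 10 members passed. Atf4 did not pass.

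SETD2 places H3K36me3 on nucleosomes while RNA polymerase II transcribes, so the mark lies over the bodies of transcribed genes and is usually sparse at their promoters. When an amino acid runs short, uncharged tRNAs activate the kinase GCN2, encoded by Eif2ak4, which phosphorylates the translation factor eIF2. General translation then slows, while translation of ATF4 rises, and ATF4 with partner factors induces genes for amino acid synthesis, transport and stress signalling. Methionine matters to both systems, since it is an amino acid and also the precursor of S-adenosylmethionine, the methyl donor used by SETD2.

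ATF4 binds, with C/EBP proteins, composite elements whose core was searched here as TGATGNAA on one strand or TTNCATCA on the other. The windows searched ran from 250 bases before to 50 bases after the annotated start in the RefSeq promoter table, in which all 10 members were found. A match was found in 4 of the 13 promoters of the members (30.8%), those of Atf3, Trib3, Chac1 and Asns, against 3.22% of the 19079 promoters that belong to the 19300 genes and 3.97% of all 32851 promoters of the table. The matches are shown, with 30 bases each and the match in capitals, because the stretch that holds them lay outside the WT peaks: the window at the annotated gene start had 0% cover in all 10 WT libraries for all 10 members. The match began 110 bases before the start in Atf3, 193 bases before it in Chac1 and 23 bases before it in Asns, and at base 15 of the transcribed part in Trib3. The sequences are read 5′ to 3′ on the strand of the gene, on GRCm38.
Atf3, minus strand, chr1:191183425-191183454: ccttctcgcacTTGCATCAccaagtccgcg
Trib3, minus strand, chr2:152344028-152344057: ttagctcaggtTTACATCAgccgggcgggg
Chac1, plus strand, chr2:119351038-119351067: cttccctgccgTTGCATCActcctgccagg
Asns, minus strand, chr6:7693214-7693243: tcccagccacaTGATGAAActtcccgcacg
A match to these letters is a description of the sequence and not evidence of binding.

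The lists covered 110 to 183 Mb of the genome in WT libraries and 0.00821 to 74.1 Mb in KO libraries. Within WT, restricted libraries covered less than control libraries of the same day, 110 and 128 Mb against 140 and 150 Mb at day 1, and 131 and 134 Mb against 171 and 183 Mb at day 5. The body of Setd2, the targeted gene, was covered to between 45.6% and 82.8% in WT libraries, to at most 24.0% in KO line 1 and to 0% in KO line 2. This shows the mark over the gene and does not measure the SETD2 protein. Of 8 muscle markers, 7 reached 50% cover in some WT library, and of 7 markers of other cell types, 6 were at 0 in every WT library, with Krt14 reaching 5.82%. Peak lists carry no read depth and no height on a scale shared by the libraries, so every value below is the extent of called peaks. In bulk chromatin, fewer cells carrying the mark and less of the mark per cell cannot be told apart.

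**Figure D1:**
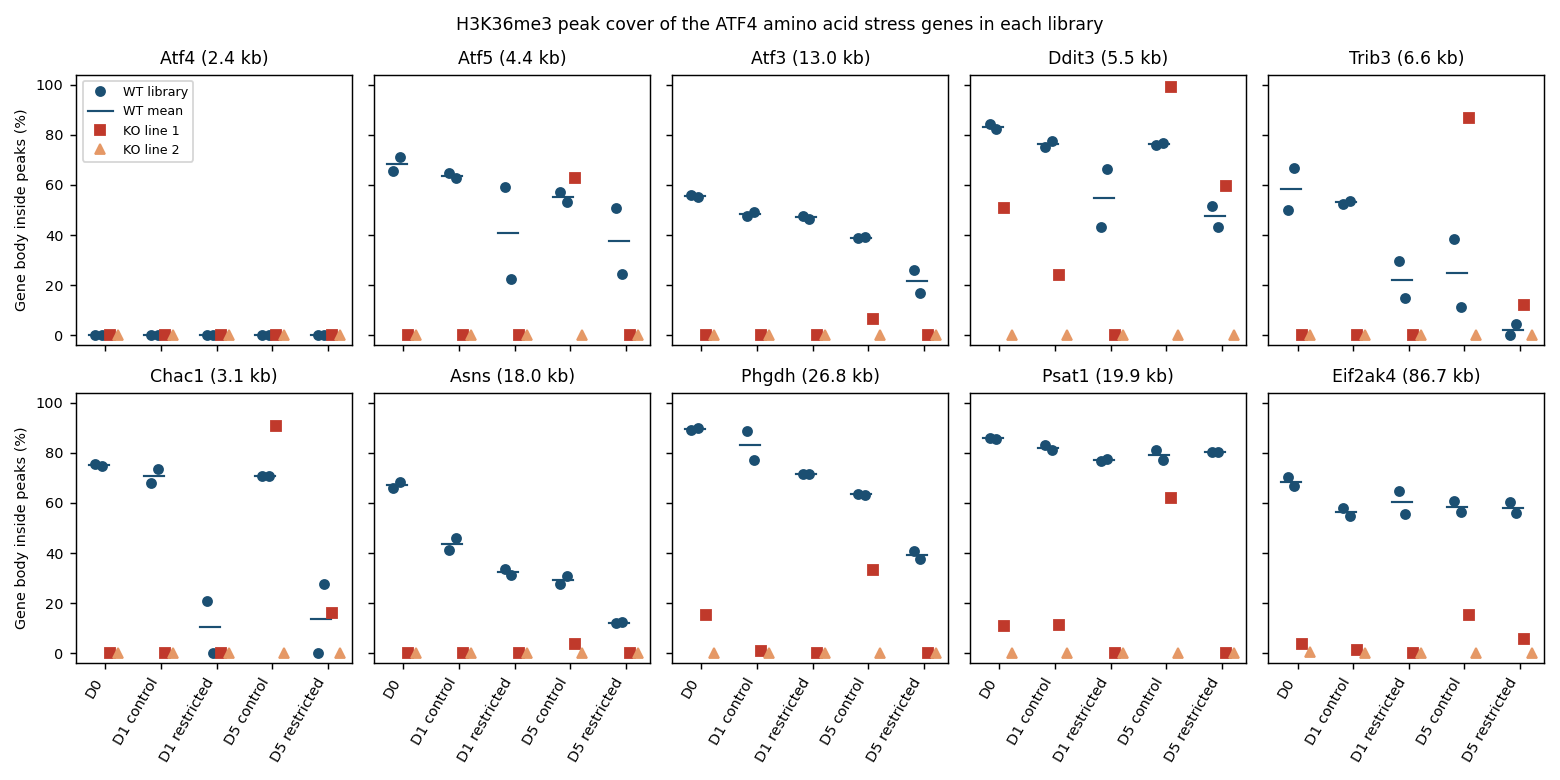
Percent of each gene body inside H3K36me3 peaks (y axis) in every library, by day and medium (x axis). Circles are the 2 WT libraries of a condition and bars their mean, squares are KO line 1 and triangles KO line 2; Atf4 is at 0 throughout, Asns and Phgdh step down from day 0 to day 5, and KO line 2 lies at or near 0 in all panels.

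Eif2ak4 encodes GCN2, the sensor at the head of the pathway. It is the longest member, 86.7 kb on the plus strand of chr2:118388583-118475234. Its cover in WT was 70.5% and 66.6% at D0, 58.0% and 54.8% in D1 control, 64.9% and 55.5% in D1 restricted, 60.7% and 56.3% in D5 control, and 60.2% and 56.1% in D5 restricted. The day 0 libraries stood above all others, and control and restricted libraries overlapped on both days. The mark over this gene was broken into 21 to 36 peaks per WT library.

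Atf4, the effector of the pathway, is 2.36 kb long on the plus strand of chr15:80255184-80257545. It was listed at 0 in all 20 libraries. No library had a peak anywhere in the 340 kb from 80221577 to 80561209 of chromosome 15, which also holds Mief1, Rps19bp1 and Cacna1i. The nearest peak in WT lay 38.1 to 42.6 kb away. Genes at 0 were common at this length, since 1404 of the 2451 genes of 2 to 5 kb (57.3%) were at 0 in all WT libraries. Of all 19300 genes, 12.6% lay wholly within a stretch without peaks at least as long as that around Atf4. Absence from a peak list says only that no peak was called. Whether regions were masked or filtered out before peak calling is not given in the sources used here, so the 0 over Atf4 cannot be read as a lack of the mark.

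Atf5 encodes a bZIP factor translated under the same control as ATF4. It is 4.403 kb long on the minus strand of chr7:44812256-44816658, and 12.97% of it overlaps other annotated genes, Il4i1b and Nup62. Its WT cover was 65.6% and 71.0% at D0, 64.6% and 62.9% in D1 control, 59.1% and 22.5% in D1 restricted, 57.2% and 53.2% in D5 control, and 50.7% and 24.6% in D5 restricted. On each day both restricted libraries lay below both control libraries, and the restricted replicates differed widely from each other.

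Atf3, a bZIP repressor and activator induced in many stresses, spans 13.04 kb on the minus strand of chr1:191170296-191183333. Cover in WT was 56.1% and 55.1% at D0, 47.8% and 49.4% in D1 control, 47.8% and 46.3% in D1 restricted, 38.8% and 39.2% in D5 control, and 26.1% and 16.99% in D5 restricted. Control and restricted libraries overlapped at day 1 and were apart at day 5. Ddit3 encodes CHOP, a bZIP partner of C/EBP factors linked to cell death in prolonged stress. It spans 5.50 kb on the plus strand of chr10:127290793-127296291, with 2.69% of its length inside Mars1 or Mbd6. WT libraries covered the gene to 84.3% and 82.2% at D0, 75.1% and 77.4% in D1 control, 43.3% and 66.2% in D1 restricted, 75.8% and 76.5% in D5 control, and 51.5% and 43.4% in D5 restricted. Both restricted libraries were below both control libraries on each day. In control medium the Ddit3 peak belonged to a wider one: the widest peak touching the gene measured 18.5 and 18.5 kb at day 1, with 77.7% and 77.0% of it outside the gene. Under restriction at day 1 it measured 2.04 and 4.22 kb, with 17.1% and 13.7% outside. The 5 kb downstream of the gene were still covered to 88.8% and 85.7% in these libraries, against 100% in both controls.

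Trib3 encodes a pseudokinase that dampens ATF4 and CHOP activity, and spans 6.64 kb on the minus strand of chr2:152337425-152344060. Its WT cover was 50.1% and 66.9% at D0, 52.5% and 53.5% in D1 control, 29.6% and 14.8% in D1 restricted, 38.5% and 11.3% in D5 control, and 0% and 4.63% in D5 restricted. Its replicates were farthest apart in D5 control. Chac1 encodes a glutathione-degrading enzyme and is 3.09 kb long on the plus strand of chr2:119351242-119354326. Cover of Chac1 in WT was 75.6% and 74.8% at D0, 68.0% and 73.7% in D1 control, 20.7% and 0% in D1 restricted, 70.9% and 70.9% in D5 control, and 0% and 27.6% in D5 restricted. Thus 1 restricted library on each day had no peak over Chac1, and all 6 libraries outside restriction had 68.0% or more.

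The remaining members encode enzymes that make amino acids. Asns, asparagine synthetase, spans 18.05 kb on the minus strand of chr6:7675165-7693209. WT cover of Asns was 65.9% and 68.4% at D0, 41.3% and 46.2% in D1 control, 33.5% and 31.3% in D1 restricted, 27.7% and 31.0% in D5 control, and 12.03% and 12.48% in D5 restricted. It fell with time and was lower under restriction on each day, with no overlap between media. Phgdh, which begins serine synthesis, spans 26.8 kb on the minus strand of chr3:98313171-98339969. WT cover of Phgdh was 88.9% and 89.9% at D0, 88.7% and 77.2% in D1 control, 71.5% and 71.5% in D1 restricted, 63.7% and 63.3% in D5 control, and 40.8% and 37.6% in D5 restricted. Its order of conditions was the same as that of Asns. Psat1, the next enzyme of serine synthesis, spans 19.9 kb on the minus strand of chr19:15905123-15925059. Psat1 cover in WT was 85.9% and 85.6% at D0, 83.0% and 80.9% in D1 control, 76.7% and 77.6% in D1 restricted, 81.2% and 77.2% in D5 control, and 80.2% and 80.3% in D5 restricted. Psat1 had the highest mean cover of the members over the 10 WT libraries together, 80.9%, and its media overlapped at day 5. Phgdh had the higher mean at D0 (89.4% against 85.7%) and in D1 control (82.9% against 82.0%).

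The first comparison asked how methionine restriction changed cover in WT cells at day 1. Chac1, Trib3, Ddit3 and Asns fell, that is 4 of the 9 tested members, and no member rose. Among all tested genes, 36% were called lower and 2.38% higher, so a count of 4 of 9 is close to the background. The median difference was −11.5 percentage points over the 9 members and −7.99 points over all tested genes. Markers of muscle moved with restriction as well. Of the 8, 6 at day 1 and 7 at day 5 had both restricted libraries below both control libraries and none lay above. At day 5 such a fall without overlap held for 65.4% of all tested genes. Of the 7 markers tested, 6 were called lower at day 1 and 7 at day 5, against 36% and 41.5% of all tested genes. The summed cover of the 8 markers was 393.9 and 418.6 points in the control and 102.8 and 134.3 points in the restricted libraries at day 1. At day 5 it was 588.3 and 593.2 points against 185.3 and 195.7 points. Myod1 and Myog, regulators of muscle differentiation, were at 0 in all 4 restricted libraries. The part of this change in the members' differences was not tested. Chac1 fell from 70.8% ± 4.03 to 10.4% ± 14.6 (SD, n = 2), a difference of −60.5 points (SE 9.21, limma adjusted p = 0.00140). Trib3 fell from 53.0% ± 0.671 to 22.2% ± 10.5, by −30.9 points (SE 9.24, limma adjusted p = 0.0298). Ddit3 fell from 76.3% ± 1.59 to 54.7% ± 16.2, by −21.5 points (SE 6.64, limma adjusted p = 0.0334). Asns, with the smallest difference called, went from 43.7% ± 3.48 to 32.4% ± 1.58 (−11.3 points, SE 3.60, limma adjusted p = 0.0374). Phgdh differed by −11.5 points with a limma adjusted p of 0.0524 and was not called. Atf5 differed by −22.9 points (SE 11.6), Psat1 by −4.80 (SE 2.33), Atf3 by −1.54 (SE 4.02) and Eif2ak4 by 3.82 (SE 4.33), none called.

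Only Chac1 of these 4 was called under every alternative processing tried at day 1. Without replicate 1 of the day 1 control libraries 1 member was called, against 26% of all genes called lower. Without replicate 2 of the control or of the restricted libraries 2 were called, against 24% and 22.8% of all genes. Asns lost its call without any one of the 4 day 1 libraries, Ddit3 without either control library or replicate 1 of the restricted ones, and Trib3 without either control library or replicate 2 of the restricted ones. Atf5 turned on 1 restricted library: it was called at −41.3 points without replicate 1 and was at −4.61 points (adjusted p = 0.785) without replicate 2. Phgdh turned likewise on 1 control library, at −5.70 points (adjusted p = 0.333) without replicate 1 and called at −17.2 points (adjusted p = 0.0170) without replicate 2. With peaks limited to a −log10 q of at least 3, the difference of Trib3 at day 1 was 0 points (adjusted p = 1), in a range from −38.3 to 0 points over its alternatives. Ddit3 ran from −60.9 points at that limit to −6.34 after centring and lost its call under 9 of 18 alternatives, and Asns ran from −17.7 to 3.88 points. The restricted libraries covered less of the genome, and trimming all lists to 110 Mb left 2 members called, Chac1 and, at −52.5 points, Atf5, while the share of all genes called lower went from 36% to 19.4% and the share called higher from 2.38% to 8.13%. Over all alternatives the adjusted p of Chac1 was at most 0.0131. Centring each library on its median removed a shift of −15.2 points between the media. The calls over all genes then went from 226 higher and 3422 lower to 3518 higher and 1246 lower, the differences of Atf3, Asns, Phgdh and Psat1 turned positive, Atf3, Psat1 and Eif2ak4 were called higher, and Chac1 stayed called at −45.3 points.

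At day 5 the same comparison called 5 of the 9 members lower, Chac1, Ddit3, Phgdh, Atf3 and Asns, and none higher. Over all tested genes 41.5% were called lower and 4.32% higher. The median difference was −17.6 points over the members and −9.15 over all tested genes. Chac1 fell from 70.9% ± 0.0229 to 13.8% ± 19.5 (SD, n = 2), by −57.1 points (SE 9.21, limma adjusted p = 0.00145). Ddit3 fell from 76.2% ± 0.527 to 47.4% ± 5.74, by −28.7 points (SE 6.64, limma adjusted p = 0.00823). Phgdh fell from 63.5% ± 0.338 to 39.2% ± 2.28, by −24.3 points (SE 4.01, limma adjusted p = 0.00161). Atf3 fell from 39.0% ± 0.304 to 21.5% ± 6.44, by −17.5 points (SE 4.02, limma adjusted p = 0.00794). Asns fell from 29.4% ± 2.34 to 12.3% ± 0.317, by −17.1 points (SE 3.60, limma adjusted p = 0.00530). Trib3 differed by −22.6 points with a limma adjusted p of 0.0783, Atf5 by −17.6 points (SE 11.6), Psat1 by 1.06 (SE 2.33) and Eif2ak4 by −0.318 (SE 4.33). Without replicate 2 of the restricted day 5 libraries 3 members were called, Atf3 and Ddit3 losing their calls, and without replicate 2 of the day 5 controls Trib3 was also called, at −36.2 points. Without replicate 1 of those controls Trib3 was at −8.94 points (adjusted p = 0.475), and over its alternatives it ran from −36.2 to −5.88. Atf5 was at −30.6 points without replicate 1 of the restricted libraries and at −4.55 without replicate 2, called in neither case. With lists trimmed to 110 Mb only Chac1 was called, against 20.2% of genes called lower and 15.4% higher, and with peaks limited to a −log10 q of at least 3 the 2 called were Chac1 and Atf5, against 27.9% lower and 7.46% higher. Over its alternatives Asns ran from −18.8 to −0.424 points, the latter after centring (adjusted p = 0.937), Phgdh from −25.9 to 1.33, Atf3 from −22.03 to 5.26 and Ddit3 from −32.8 to −12.1. Centring on the library median left 3 calls, Chac1 lower and Psat1 and Eif2ak4 higher, while the calls over all genes went from 411 higher and 3944 lower to 3763 higher and 1395 lower.

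**Figure D2:**
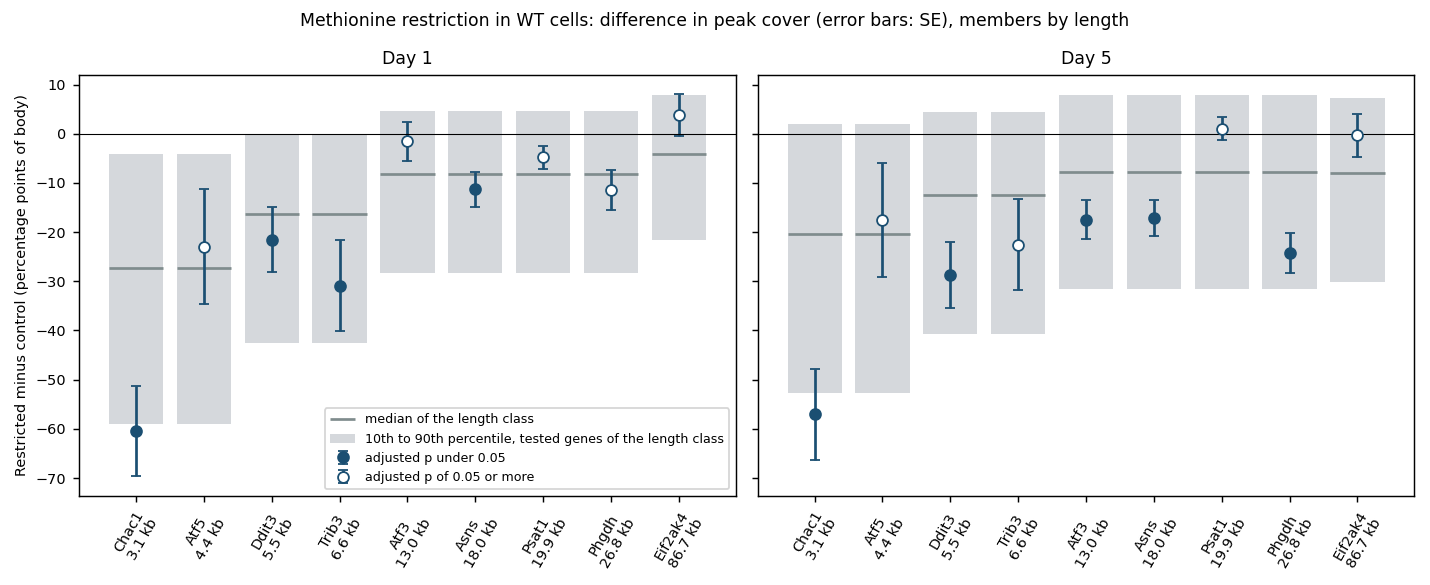
Restricted minus control cover in WT (y axis, percentage points of the gene body) at day 1 and day 5 for the 9 tested members, ordered by gene length (x axis). Points are limma differences with SE, filled where called; grey bars run from the 10th to the 90th percentile of the tested genes in the same length class and grey lines mark its median. Chac1 lies below the 10th percentile of genes of 2 to 5 kb on both days, at −60.5 and −57.1 points.

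The restriction effect itself was not called different between the days for any of the 9 members, against 5.2% of all tested genes. The limma interaction gave 1 member with an unadjusted p under 0.05, Atf3, whose difference was 15.9 points more negative at day 5 than at day 1 (interaction −15.9, SE 5.69, limma adjusted p = 0.160). Phgdh had an interaction of −12.8 points (SE 5.66) and Chac1 of 3.40 points (SE 13.02). With such errors a change of effect between the days could not be told from its absence for these genes.

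Gene length moved with these differences. Across the 9512 tested genes, which are not independent replicates, Spearman's rho between length and the restriction difference was 0.409 at day 1 and 0.155 at day 5. At day 1 the median difference was −27.2 points in genes of 2 to 5 kb, −16.3 in genes of 5 to 10 kb, −8.14 in genes of 10 to 30 kb, −4.18 in genes of 30 to 100 kb and −1.98 in longer genes. Against genes of its own class, 8.41% fell further than Chac1 at day 1 and 6.75% at day 5. All class ranks given here match genes for length and not for starting cover, and no gene can fall by more points than its starting cover. For Chac1 the control mean was 70.8% at day 1 and 70.9% at day 5. The median cover of all tested genes was 45.2% and 47.9% in D1 control and 54.7% and 50.6% in D5 control. Trib3 had 19.6% of its class below it at day 1 and 29.1% at day 5, and Ddit3 37.1% and 21.2%. Atf5, of similar length to Chac1, had 57.2% and 56.5% of the class below it, so it lay near the middle. Among members of 10 to 30 kb, Phgdh had 39.7% of the class below it at day 1 and 17% at day 5, Asns 40.3% and 27.2%, Atf3 74.1% and 26.3%, and Psat1 62.2% and 77.9%. Eif2ak4 had 81.3% and 73.6% of its class below it. These members thus ranged from the lower end of their class to its upper part.

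**Figure D3:**
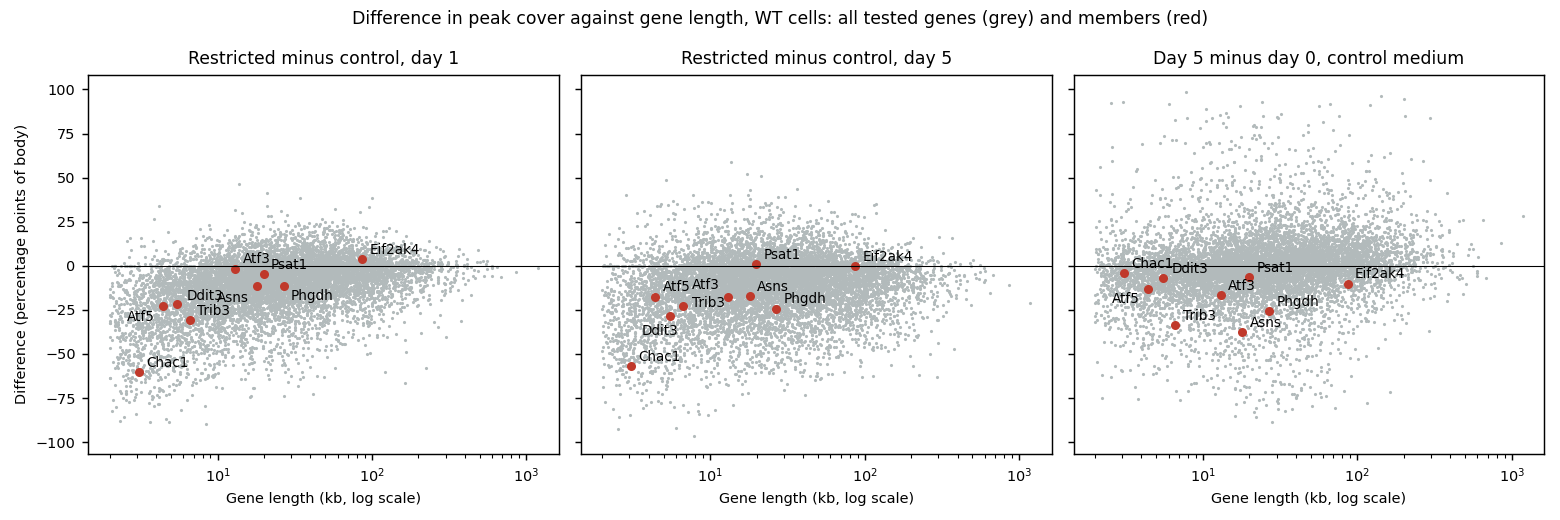
Difference in cover (y axis, percentage points) against gene length (x axis, kb, log scale) in WT for restriction at day 1, restriction at day 5, and day 5 against day 0 in control medium. Grey points are the 9512 tested genes and red points the 9 tested members; short genes lie lower under restriction at day 1, and Asns (−37.8 points) and Trib3 (−33.6 points) lie lowest of the members in the right panel.

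The second comparison followed cover over differentiation in control medium. From day 0 to day 5 Asns, Trib3, Phgdh and Atf3 fell, 4 of the 9 tested members, against 15.6% of all tested genes called lower and 12.2% called higher. No member was called higher, and all 9 differences were negative. For all 9, as for 36.1% of all tested genes, both day 5 libraries lay below both day 0 libraries. The median difference was −13.05 points over the members and −1.17 over all tested genes. The summed cover of the 8 muscle markers was 238.6 and 244.9 points at day 0, below the day 5 control sums given above, and its part in these differences was not tested. Asns fell from 67.1% ± 1.73 to 29.4% ± 2.34 (SD, n = 2), by −37.8 points (SE 3.60, limma adjusted p = 9.86e-05). Phgdh fell from 89.4% ± 0.662 to 63.5% ± 0.338, by −25.9 points (SE 4.01, limma adjusted p = 0.00169). Trib3 fell from 58.5% ± 11.8 to 24.9% ± 19.3, by −33.6 points (SE 9.24, limma adjusted p = 0.0270). Atf3 fell from 55.6% ± 0.754 to 39.0% ± 0.304, by −16.6 points (SE 4.02, limma adjusted p = 0.0155). Psat1 differed by −6.52 points (SE 2.33), Eif2ak4 by −10.1 (SE 4.33), Atf5 by −13.05 (SE 11.6), Ddit3 by −7.09 (SE 6.64) and Chac1 by −4.33 (SE 9.21). Within their length class, 3.99% of genes fell further than Asns, 4.65% further than Trib3, 7.52% further than Phgdh and 13.6% further than Atf3. Asns and Phgdh were called under all 18 alternatives, Asns between −50.4 and −35.4 points and Phgdh between −63.9, with trimmed lists, and −23.5. Atf3 ran from −52.9 points, at a −log10 q of at least 3, to −14.2. Atf3 lost its call without either day 5 library, and Trib3 without replicate 2 of day 0. Without replicate 2 of the day 5 control libraries 2 members were called, and Trib3 was then at −20.02 points with an adjusted p of 0.165 (−15.9 points at the stricter −log10 q), in a range from 0.00960 to 0.457 over its alternatives. Centring on the library median changed the calls over all genes from 1157 higher and 1484 lower to 1614 higher and 1299 lower.

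From day 0 to day 1 in control medium all 9 differences were negative, with a median of −6.46 points against −5.30 over all tested genes. Asns, 1 of the 9, was called, at −23.4 points (SE 3.60, limma adjusted p = 0.0105), against 5.65% of tested genes called lower. Eif2ak4 had the lowest p of the others (−12.1 points, SE 4.33, limma adjusted p = 0.129). Without replicate 1 of the day 1 control libraries, Asns was not called (−21.0 points). Centring gave a limma adjusted p of 0.0851, in a range from 0.00413 to 0.253 over the alternatives of Asns. Its difference ran from −35.4 to −12.7 points over them. From day 1 to day 5 in control medium Phgdh fell by −19.4 points (SE 4.01, limma adjusted p = 0.00931) and Asns by −14.4 points (SE 3.60, limma adjusted p = 0.0218), 2 of 9 members, against 5.95% of tested genes called lower and 17.1% called higher. Leaving out a library ended 1 or both of these calls: without replicate 1 of day 1 no member was called, and without replicate 2 of day 1 or either day 5 library 1 was called. Over the alternatives Phgdh ran from −58.7 to −13.7 points and Asns from −32.3 to −11.9. Under restriction, from day 1 to day 5, Phgdh fell by −32.3 points (SE 4.01, limma adjusted p = 0.00158), Atf3 by −25.5 points (SE 4.02, limma adjusted p = 0.00518) and Asns by −20.2 points (SE 3.60, limma adjusted p = 0.00930), 3 of 9 members, against 3.71% of tested genes called lower and 8.74% called higher. Asns lost its call without either restricted day 5 library, and without replicate 2 of them 1 member was called, Phgdh. At a −log10 q of at least 3 Asns was at −0.596 points (adjusted p = 1) and Atf3 at −18.6 points (adjusted p = 0.416), while over the alternatives Atf3 ran to −41.8 points and Phgdh from −47.01 to −30.7. Centring turned the balance of calls over all genes from 1628 higher and 566 lower to 991 and 1176 in control medium, and from 831 and 353 to 437 and 565 under restriction. From day 0 to day 1 it changed from 92 higher and 537 lower to 225 and 108. These contrasts share libraries with each other and with the restriction contrasts, so their values are not separate evidence.

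A further comparison set WT against the Setd2 KO lines. KO line 2 had 0% cover of every member in every condition, except 0.387% of Eif2ak4 at D0. In this line at most 13.7% of all tested genes had any cover, in D5 control. KO line 1 had cover over 4 of the 9 tested members at D0, and over 46.9% of all tested genes, Ddit3 at 51.0%, Phgdh at 15.4%, Psat1 at 10.9% and Eif2ak4 at 3.88%. At day 1 in control medium it had 24.0% of Ddit3, 11.2% of Psat1, 1.40% of Eif2ak4 and 1.01% of Phgdh, and in D1 restricted 0% of every member. Of all tested genes, 35.6% had any cover in KO line 1 in D1 control and 2.43% in D1 restricted. The D1 restricted list of this line covered only 0.307 Mb. WT minus KO, the mean difference over the 5 conditions ran from 22.3 points for Trib3 and 36.6 points for Asns to 72.5 points for Psat1. A two-sided exact permutation test within conditions called 8 of the 9 tested members higher in WT, all but Trib3 (permutation p = 0.0761, adjusted p = 0.0780), and 96.6% of all tested genes. Genes entered this test through their cover in WT, so a call in that direction was nearly fixed by the filter and the count is no support. Without the filter 9903 of 12931 genes were called higher in WT and 213 lower. The 10 KO libraries come from 2 lines, each measured in all 5 conditions, and the test treats them as independent, so its p-values are too small as a statement about lines. With KO line 1 alone against WT, Ddit3 (20.9 points, exact permutation adjusted p = 0.0927) and Chac1 (26.9 points, exact permutation adjusted p = 0.0884) lost their call, and with KO line 2 alone Trib3 gained one (32.2 points, exact permutation adjusted p = 0.00913).

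KO line 1 in D5 control stood apart. All 9 tested members had peaks there, as did 71.7% of all tested genes, and the library covered 74.1 Mb, against at most 45.8 Mb in any other KO library. Trib3 was covered to 86.8% against 38.5% and 11.3% in WT, Chac1 to 90.6% against 70.9% and 70.9%, Ddit3 to 99.1% against 75.8% and 76.5%, and Atf5 to 62.7% against 57.2% and 53.2%. These 4 members lay above both WT libraries, as did 5.93% of all tested genes, 12.9% of tested genes of 2 to 5 kb and 7.88% of those of 5 to 10 kb. The other members lay below both, Psat1 at 62.0%, Phgdh at 33.3%, Eif2ak4 at 15.2%, Atf3 at 6.38% and Asns at 3.65%. Setd2 itself had 24.0% cover in this library. For Ddit3, Chac1, Atf5 and, slightly, Trib3 less of the widest peak lay outside the gene than in WT. The widest peak over Ddit3 was 5.78 kb with 5.79% outside the gene, against 18.2 and 17.5 kb with 77.2% and 80.7% outside in WT. The widest peak over Chac1 was 2.80 kb and lay wholly within the gene, against 3.19 and 2.86 kb with 31.4% and 23.6% outside in WT. That over Atf5 was 1.96 kb and also lay within its gene, against 2.49 and 2.39 kb with 63.3% and 67.0% outside in WT. The widest peak over Trib3 was wider than in WT, 6.43 kb against 1.08 and 0.905 kb, with 10.4% outside against 10.9% and 17.5%. Under restriction at day 5, KO line 1 had 59.4% of Ddit3, 16.01% of Chac1, 12.2% of Trib3 and 5.96% of Eif2ak4, and 0% of the other members. In that library 49.6% of all tested genes had any cover. Ddit3 and Trib3 were then above both WT libraries, as were 9.99% of tested genes. There is 1 library per line and condition, so these KO values have no replicate and no test of the line against WT within a condition.

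**Figure D4:**
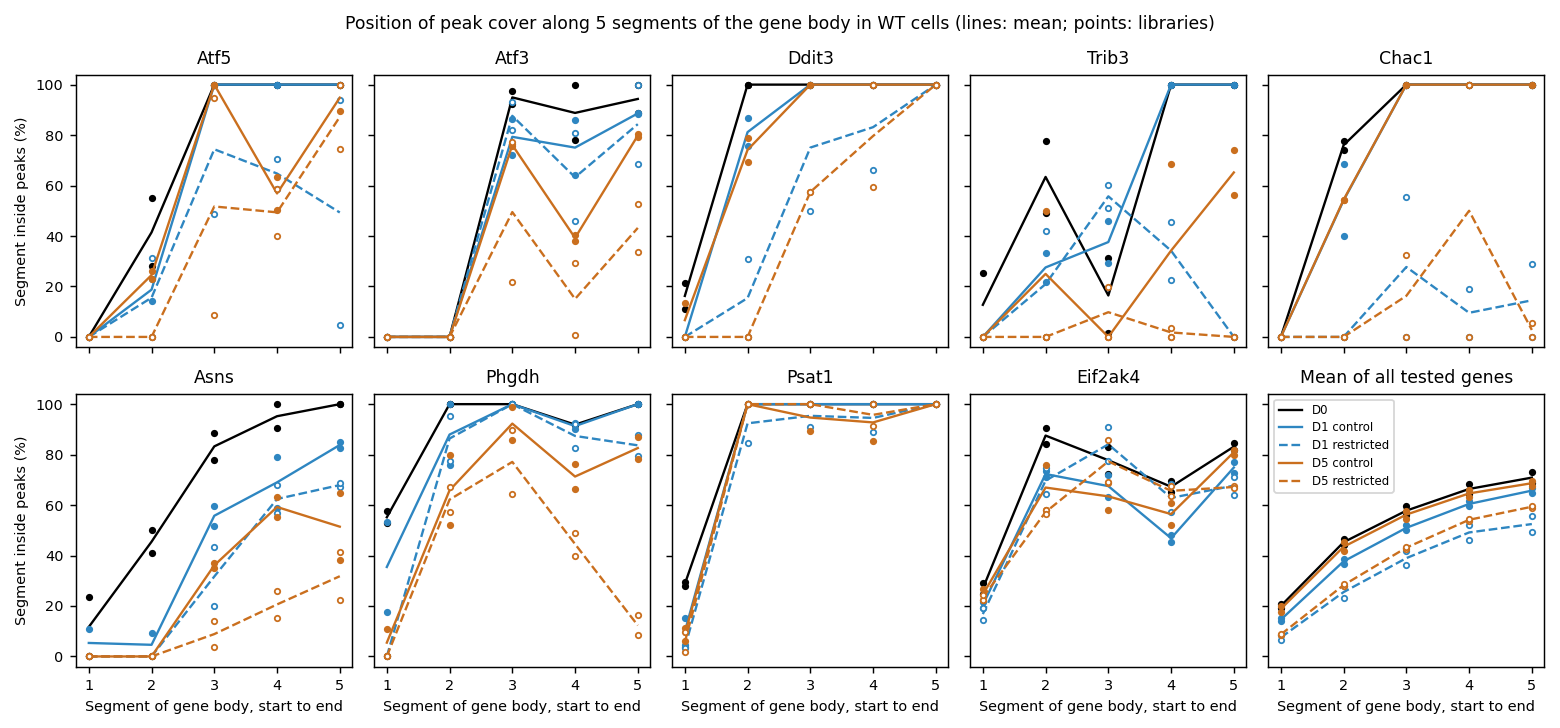
Percent of each of 5 equal segments of the gene body inside peaks (y axis), numbered from the start to the end of the gene (x axis), in WT, for the 9 tested members and the mean of all tested genes with a known strand. Lines are means of 2 libraries and points are libraries, open and dashed under restriction; segment 1 is at 0 in Atf5, Atf3 and Chac1, and restricted lines of Phgdh at day 5 drop toward the end of the gene.

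The position of the peaks was read in 5 equal segments of the gene body, numbered from its start. Over all tested genes at D0, mean cover rose from 20.03% in segment 1 to 70.9% in segment 5. Atf5, Atf3 and Chac1 had 0% in segment 1 in each WT condition, and Atf3 also in segment 2. Phgdh had the highest value of the members in segment 1 at D0, 55.2% ± 3.42 (SD, n = 2), and it was 5.47% ± 7.73 in D5 control and 0% under restriction. In Asns segment 2 went from 45.5% ± 6.58 at D0 to 4.61% ± 6.52 in D1 control and 0% at day 5, while segment 5 went from 100% to 83.8% ± 1.45 and 51.4% ± 18.9. Under restriction at day 5 segment 5 of Phgdh was at 12.3% ± 5.61, against 82.6% ± 6.16 in control medium, whereas its segment 3 was at 77.1% ± 17.8 against 92.3% ± 9.18. In Ddit3 segment 5 stayed at 100% in all WT libraries, and segment 2 went from 81.2% ± 7.97 to 15.4% ± 21.8 under restriction at day 1 and from 74.1% ± 6.75 to 0% at day 5. Psat1 kept 92.4% or more on average in each of segments 2 to 5 in all WT conditions. The segments were not tested.

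Other genes of the pathway were read from 3 lists, to be set against the 36% of all tested genes called lower and 2.38% called higher under restriction at day 1, and 41.5% and 4.32% at day 5. Short genes fell more often, 61.5% of those of 2 to 5 kb at day 1 and 53.8% at day 5, and genes under 10 kb made up 5 of the 15, 4 of the 10 and 5 of the 29 tested genes of the lists, against 23.5% of all tested genes. Of 15 eIF2 kinases, eIF2 subunits and regulators, all tested, 4 fell under restriction at day 1 and 3 at day 5, shares below those of all genes, with medians of −4.84 and −1.42 points. Ppp1r15b, a constitutive eIF2 phosphatase subunit, fell by −47.3 points (SE 3.73) at day 1 and −32.0 at day 5, and Ppp1r15a, the stress-induced subunit, by −25.6 and −28.4. Eif2b4 fell by −31.0 points at day 1 and rose by 24.1 from day 1 to day 5 under restriction. Of 10 tested bZIP genes, 6 fell at day 1 and 9 at day 5, with medians of −18.5 and −27.9 points. Jun, 3.19 kb long, went from 71.4% ± 3.11 (SD, n = 2) to 0% in both restricted libraries at day 1 and from 67.6% ± 2.37 to 0% at day 5. In this list of 10, against 12.2% of all tested genes, 3 genes rose from day 0 to day 5 in control medium, Fos by 37.7 points, Atf6 by 16.7 and Nfe2l1 by 12.3. Of 29 other tested genes named as ATF4 targets, 16 fell at day 1 and 17 at day 5 and none rose, with medians of −11.6 and −13.9 points. Ddit4, an inhibitor of mTORC1 of 2.10 kb, went from 76.0% ± 1.35 to 0% at day 1 and from 77.2% ± 6.81 to 0% at day 5, and Nupr1, a stress-induced chromatin protein of 2.23 kb, from 56.9% ± 1.56 to 0% and from 57.3% ± 0.445 to 0%. Eif4ebp1, a translation repressor of 15.3 kb, fell by −41.4 points at day 1 and −49.99 points at day 5. From day 0 to day 5 in control medium 4 of these 29 fell and 3 rose, against 15.6% and 12.2% of all tested genes, among them Stc2 by −39.0 points, Ero1a by 36.7 and Slc6a9 by 32.6.

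Genes whose cover followed that of a member most closely over the 10 WT libraries were named by their Pearson correlation, as a description, since the libraries share 5 conditions and their overall extent of peaks. For Chac1 these were Trim35 (r = 0.99) and Kank2 (r = 0.99), for Asns Slc1a5 (r = 0.98) and Rangap1 (r = 0.98), and for Phgdh Birc5 (r = 0.99) and Aurkb (r = 0.97). Birc5 also led for Atf3 (r = 0.98), followed by Spag5 (r = 0.97). For Ddit3 they were Ovca2 and Blcap, for Trib3 Ttyh3 and Rem1, for Atf5 Banf1 and Cops9, for Psat1 Plxna3 and Rgl2, and for Eif2ak4 Ppm1f and Igfbp7, with r between 0.94 and 0.98.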

How the data were processed

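The authors deposited 1 broad-peak list per library, 20 in all, called on GRCm38 per the submitters' processing notes. The peak caller, its control and the read filters are not given in the sources used here, and replicates were not pooled. Per the labels' protocols, Drosophila chromatin was added as a spike-in; no spike-in scaling was applied here, and the input was not used here. The deposited fold enrichment of each peak, a ratio, ranked peaks within a list; the deposited −log10 q served as a filter; the score deposited by the authors was not used. No list gives counts, so depth is unknown and no counting interval is given.

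Overlapping peaks of a library were merged (autosomes 1 to 19 and the sex chromosomes), and the percent of each RefSeq (GRCm38.p6) gene body inside them was computed. WT libraries were compared with limma 3.58.1 (R 4.3.3) on that percent, with trend and robust settings and 5 groups sharing an estimate of the spread. WT and KO libraries were compared by an exact permutation test within the 5 conditions, 7776 arrangements. Benjamini-Hochberg adjustment ran over all 9512 tested genes, and adjusted p under 0.05 was a call. Both tests were tested on simulated data.

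The members, the pathway lists (genes named from them: the 3 largest differences called per list and contrast), the length classes and the tests were chosen with earlier results of these data known. Cebpb and Fgf21 are shorter than 2 kb and were left out. The labels do not say whether replicate numbers pair the libraries, and the main fit did not pair them. Correlations between libraries of equal number are given with the other limits. Alternatives were a −log10 q of at least 3, lists trimmed by fold to a common length, no filter on cover, bases of no other gene, centring on the library median, other model settings, only the groups compared, a replicate block, leaving out each WT library, each KO line alone and leaving out day 1 under restriction.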

Additional observations from a re-analysis of the deposited data

Results flagged for a closer look

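Between day 0 and day 5 in control medium, both WT libraries of day 5 lay below both of day 0 for all 9 tested members, as for 36.1% of all tested genes, while KO line 1 went up. KO line 1 gained 90.6 percentage points over Chac1, 86.8 over Trib3, 62.7 over Atf5, 51.1 over Psat1, 48.1 over Ddit3, 17.9 over Phgdh, 11.3 over Eif2ak4, 6.38 over Atf3 and 3.65 over Asns. The difference between the genotypes was not tested, since KO line 1 has 1 library per condition. Of all tested genes, 21.4% had both WT libraries lower and KO line 1 higher, and 69.5% gained cover in KO line 1. The median gain there was 6.34 points over all tested genes and 48.1 points over the members. The covered length of that line moved with it, from 17.7 to 74.1 Mb, and its part in the result was not tested. KO line 2 had 0% cover of all 9 members at day 5. Any cover was listed there for 13.7% of all tested genes in control medium and 2.6% under restriction.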

How the results depend on the processing

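Of 468 alternatives of the 27 called member differences, 403 kept direction and call, 61 lost the call and 4 changed sign. The tally includes the 8 calls of WT against KO, nearly fixed by the filter on cover, which raise the share kept. Of these, Ddit3 and Chac1 each lost the call under 1 of 16 alternatives, and the rest kept it under all. Chac1 under restriction on both days, Asns and Phgdh from D0 to D5 control, and Phgdh between the restricted days stayed called under all 18 alternatives. Trib3 had no value with trimmed lists. At D1 the members called under restriction numbered 2 with length-trimmed lists, with no filter on cover and with only the groups compared (19.4%, 27.9% and 32.9% of all genes lower). At D5 they numbered 2 at a −log10 q of at least 3 and 1 with trimmed lists (27.9% and 20.2% of all genes lower). After centring they numbered 3, Chac1 lower and Psat1 and Eif2ak4 higher, against 14.7% of all genes lower and 39.6% higher. From D0 to D1 control, trimming, centring and fitting only the groups compared each gave 0, against 1; of all genes limma called 1.36% and 1.14% lower under the first pair and 0 of 9449 in the last, where 1883 had an unadjusted p under 0.05, so that 0 says nothing of the members. From D0 to D5 control, fitting only the groups compared gave 2, against 4 (10% of all genes lower). Between the D1 and D5 controls the count was 1 at the stricter q, 4 after centring and 1 with only the groups compared (4.95%, 12.4% and 6.46% of all genes lower). Between the restricted days it was 1 at the stricter q (2.25%). The cause of these shifts was not tested.

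Leaving out a WT library gave 1 to 4 members for D1 restriction, 3 to 6 for D5 restriction, 0 to 1 from D0 to D1 control, 2 to 4 from D0 to D5 control, 0 to 3 between the controls of D1 and D5, and 1 to 4 between the restricted days. Over the same fits the share of all genes called lower ran from 22.8% to 38.5%, 26.2% to 44.1%, 1.09% to 9.39%, 9.81% to 15.9%, 3.85% to 7.18% and 2.07% to 4.37% in the same order. For Eif2ak4 the restriction difference then ran from −0.874 to 8.52 points at D1 and from −2.53 to 1.89 at D5, and for Psat1 from −0.940 to 3.07 at D5. A lone remaining library was assumed to vary like the other groups.

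Signs turned as follows. For D1 restriction, Atf3 was at 7.29 points with trimmed lists, and after centring Atf3 was at 13.6, Psat1 at 10.4, Asns at 3.88 and Phgdh at 3.73. For D5 restriction, trimmed lists gave 11.7 for Eif2ak4, 5.26 for Atf3 and 1.33 for Phgdh, the stricter q gave 6.74 for Eif2ak4 and 2.53 for Atf3, and centring gave 16.4 for Eif2ak4. Trib3 in WT minus KO was at −2.61 at the stricter q.

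Replicate deviations of equal number correlated at −0.439 to 0.0616 over the 10 pairs of groups, none over 0.1. The value of −0.439 was between D0 and D1 control, where libraries of equal number deviated in opposite directions. Whether libraries of equal number were prepared together is not given in the labels, and these correlations cannot settle it. With the replicate number as a block, 3 members were called for D1 restriction (Asns had an adjusted p of 0.0503, in a range from 0.0168 to 0.446 over its alternatives) and 5 for D5 restriction, and the block changed no other call among the results given here. No replicate block was fitted for WT against KO. Read depth is not in the lists, so it could not be set beside any value.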
